A study of Mus musculus with 11 samples.

Results

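The genes of 10 glycolytic enzymes were followed in hippocampal RNA-seq data of adult mouse offspring: Hk1, Gpi1, Pfkm, Tpi1, Pgk1, Pgam1, Eno1, Eno2, Pkm and Ldha. They were taken by symbol, after the Ensembl identifiers of the 11 count tables had been matched to the GENCODE annotation of GRCm38, and they are 10 of the 38293 genes in the tables. All 10 were among the 20589 genes that reached 10 counts in sum over the mice. The aldolases and Gapdh belong to the same pathway and are given only where their values meet those of the 10 genes. The mice were wildtype 129S6/SvEv x C57BL/6J F1 hybrids, 14 weeks of age. The CD group held 6 offspring (3 males and 3 females) of dams on a control diet with 2.3 mg folic acid (FA) per kg. The FD group held 5 offspring (2 males and 3 females) of dams that had received 40 mg FA per kg diet before mating and the control diet from mating on, so that the supplement was given to the dam before conception and never to the offspring itself. Whole hippocampus was sequenced, a mixture of neurons, glia and vessels, and in such tissue fewer cells of a type and less RNA per cell cannot be told apart. The labels do not say which mice were littermates, and p-values then measure the spread between these mice only.

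Glycolysis splits glucose into pyruvate in the cytosol and yields ATP and NADH. In brain, glucose is the main fuel, and neurons and astrocytes use partly different isozymes: Eno2 is the neuronal enolase and Eno1 the form found in most cells, while Ldha and Ldhb encode the subunits of lactate dehydrogenase. Many of these enzymes are also known targets of hypoxia-inducible factor, and several have left numerous processed pseudogenes in the mouse genome, which are reverse-transcribed copies of their mRNA.

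The copies matter for the counts, because the authors counted only reads with a single alignment and the reads were 50 bases long. Every window of 50 bases in the coding sequence of Pgk1 (phosphoglycerate kinase) and of Pgam1 (phosphoglycerate mutase) also occurred, letter for letter, in a GENCODE transcript of another gene. A read from such a window matches at least 2 places in the genome, and where both align equally well it is missing from the tables. Some reads were still counted on such copies, with 14 to 56 counts per mouse on Pgam1-ps2, a copy of Pgam1. How these were assigned was not tested. The following windows show copied sequence for both genes. They also show it for Tpi1 (triosephosphate isomerase), where windows with and without an exact copy lie close together. The copies are Pgk1-rs7 (chr12:10898986-10900240, GRCm38), Pgam1-ps2 (chr7:27469771-27470535) and Tpi-rs11 (chr6:127183409-127183718), all annotated as processed pseudogenes. Positions count from the first coding base, and capitals mark the 3 bases that differ between the last 2 sequences.
Pgk1 and Pgk1-rs7, bases 2 to 51: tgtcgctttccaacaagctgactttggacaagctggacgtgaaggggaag
Pgam1 and Pgam1-ps2, bases 1 to 50: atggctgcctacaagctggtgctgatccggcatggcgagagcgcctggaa
Tpi1 and Tpi-rs11, bases 667 to 716: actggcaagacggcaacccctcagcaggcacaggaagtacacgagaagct
Tpi1, bases 591 to 640: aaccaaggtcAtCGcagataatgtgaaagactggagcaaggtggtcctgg
Tpi-rs11, same stretch: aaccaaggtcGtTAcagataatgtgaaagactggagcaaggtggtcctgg

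Of the coding windows of Eno1, 83.3% had an exact copy in another gene. The share was 52.9% for Pkm (pyruvate kinase), 40.9% for Gpi1 (glucose-6-phosphate isomerase), 31.1% for Ldha and 13.7% for Tpi1. For Hk1 (hexokinase), Pfkm (phosphofructokinase) and Eno2 it was 0%. These shares are lower limits, since they were searched in annotated transcripts and not in the whole genome.

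The counted levels of the 10 genes spanned a wide range. As CPM (counts scaled to library size by the TMM method) per kb of transcript, the order over the 11 mice was Eno2, Pkm, Tpi1, Gpi1, Pfkm, Hk1, Ldha, Eno1, Pgk1 and Pgam1. Eno2 had 399.6 ± 24.9 CPM per kb (SD, n = 11) and Pkm 327.2 ± 34.2, and their ranges overlapped. The ranges of Pkm and Tpi1 overlapped as well, as did those of Gpi1 and Pfkm and those of Hk1 and Ldha. At the low end, Eno1 had 51.5 ± 5.17 CPM per kb, Pgk1 11.2 ± 1.45 and Pgam1 6.25 ± 0.769 (SD, n = 11), and the ranges of these 3 genes overlapped neither with each other nor with the rest. They are also the 3 genes with the largest share of copied coding windows. Pgk1 was represented by 212 to 887 counts per mouse and Pgam1 by 133 to 514, against 5066 to 18798 for Tpi1, which acts 2 steps before Pgk1 in the same pathway. When only windows that differ from other genes' transcripts by more than 1 base were used as length, Eno1 moved to 315.2 CPM per 1000 windows and Pkm to 764.5, while Pgk1 reached 36.0 and Pgam1 10.97. On that scale Pkm lay above Eno2 (410.8), and Ldha (192.3) above Pfkm (155.7) and Hk1 (117.4). The order of the counted levels thus depends on the length used and cannot be read as an order of mRNA abundance. Comparisons of one gene between mice use the same countable part of the transcript in every mouse.

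**Figure D1:**
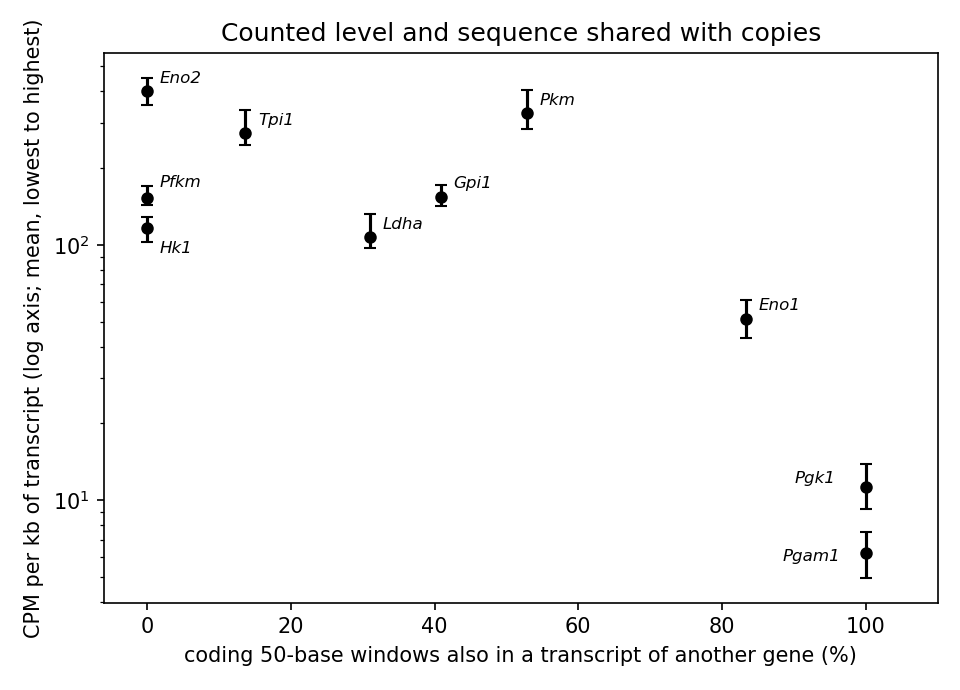
Counted level of each gene (CPM per kb of transcript, log axis) against the share of its coding 50-base windows that also occur in a transcript of another gene (%). Points are means and bars the lowest to highest of the 11 mice. Pgk1 and Pgam1 lie at 100% with the lowest levels, and Eno1 at 83.3%.

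Maternal FA supplementation was compared first. None of the 10 genes passed the adjusted p-value threshold of 0.1 between FD and CD mice, where 14 of all 20589 genes tested passed it, 0.068%, and 25 with mice of the same sex and number paired as a block (quasi-likelihood test of edgeR, Benjamini-Hochberg adjustment over all genes, as in all comparisons that follow). At an unadjusted p under 0.05 there were 0 of the 10, against 2.59% of all genes, and DESeq2 also called 0 of the 10, against 0.0875% of all genes. The fitted log2 fold changes (FD minus CD) were all below 0 but small, from -0.08 for Eno1 to -0.03 for Pfkm. Their median was -0.06, a change of -4.25%, beside -0.004 over all genes tested, of which 51.8% were below 0. In the 9973 genes that averaged 10 CPM or more, 58.9% were below 0, with a median of -0.01. For all 10 genes the 2 groups overlapped. Groups that do not overlap were found for 0.505% of all genes tested.

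In the first, preparatory part of the pathway, Hk1 (ENSMUSG00000037012, chr10:62268855-62379908, GRCm38) phosphorylates glucose on its entry into the cell. Its lowest, median and highest values in CD mice were 413.3, 456.1 and 494.1 CPM. The FD mice had 452.7, 413.9 and 481.7 CPM (females 1 to 3) and 437.7 and 394.2 CPM (males 1 and 2). FD male 2 was the lowest mouse of all and CD female 1 the highest, with the other FD mice inside the CD range. The fitted difference of Hk1 was -0.06 on the log2 scale (standard error 0.06, 95% interval -0.19 to 0.06). Gpi1 (ENSMUSG00000036427, chr7:34201330-34230336) turns glucose-6-phosphate into fructose-6-phosphate and averaged 453.3 ± 23.0 CPM in CD and 435.5 ± 25.3 CPM in FD mice (SD, n = 6 and 5). Its interval reached from -0.17 to 0.05 on the log2 scale. Pfkm (ENSMUSG00000033065, chr15:98092589-98132451), a subunit of the enzyme at the committed step, was the gene with the smallest difference. CD mice averaged 444.4 ± 27.9 CPM (SD, n = 6) and FD mice 436.0 ± 20.02 CPM (SD, n = 5), and the difference was -0.03 on the log2 scale (95% interval -0.14 to 0.08). Tpi1 (ENSMUSG00000023456, chr6:124810586-124814296) interconverts the 2 triose phosphates. Its values were 449.4 ± 52.8 CPM (SD, n = 6) in CD and 431.2 ± 35.1 CPM (SD, n = 5) in FD mice.

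The second part of the pathway recovers ATP. Pgk1 (ENSMUSG00000062070, chrX:106187100-106203699) carries out the first ATP-forming step. It had 16.9, 19.9 and 25.2 CPM (lowest, median and highest) in CD mice, and 19.6, 20.2 and 22.2 CPM in FD females and 19.8 and 18.6 CPM in FD males. All FD values lay inside the CD range, and the interval of the log2 fold change was the second widest of the 10 genes, from -0.27 to 0.15. Pgam1 (ENSMUSG00000011752, chr19:41911923-41918660) moves the phosphate group from position 3 to position 2 of glycerate. Its mean was 11.4 ± 1.54 CPM in the 6 CD mice and 10.8 ± 1.21 CPM in the 5 FD mice (SD), with an interval of -0.29 to 0.14. For these 2 genes a change of the whole mRNA is read largely from the part of the transcript outside the coding sequence.

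The enolases form phosphoenolpyruvate. Eno1 (ENSMUSG00000063524, chr4:150236721-150248879) had the largest difference of the 10 genes. Its values in CD mice ran from 95.4 to 123.4 CPM with a median of 104.5. The FD mice had 105.9, 95.2 and 115.9 CPM (females 1 to 3) and 100.5 and 87.5 CPM (males 1 and 2). Here too FD male 2 was the lowest and CD female 1 the highest mouse. The fitted difference of Eno1 was -0.08 on the log2 scale (standard error 0.08, 95% interval -0.24 to 0.08). Eno2 (ENSMUSG00000004267, chr6:124760053-124769673) had the most counts, 13082 to 49160 per mouse, and hence the smallest counting error. Its mean was 1139 ± 69.1 CPM in the 6 CD mice and 1090 ± 66.8 CPM in the 5 FD mice (SD), and the difference was -0.06 on the log2 scale (95% interval -0.18 to 0.05). Pkm (ENSMUSG00000032294, chr9:59656368-59679375), which makes pyruvate and the last ATP, had 815.0 ± 93.6 and 772.8 ± 71.6 CPM (SD, n = 6 and 5), with an interval of -0.24 to 0.09. Ldha (ENSMUSG00000063229, chr7:46841475-46855627) encodes the lactate dehydrogenase subunit associated with the formation of lactate from pyruvate. It had 192.8 ± 22.0 and 184.1 ± 11.9 CPM (SD, n = 6 and 5), with an interval of -0.22 to 0.08.

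The spread between mice within a group exceeded the difference between the groups. In CD female 1, CD female 3 and FD female 3, all 10 genes lay above their mean over the 11 mice. In CD male 2, FD female 2 and FD male 2 none of the 10 did. The median deviation of the 10 genes from their means was 0.21 on the log2 scale in CD female 1 and -0.13 in FD male 2. Without CD female 1 the median log2 fold change was -0.02, and 7 of the 10 genes were below 0. Without FD male 2 it was -0.03, with 9 below 0. With the no-feature share of the libraries (described below) as a covariate it was -0.03, with all 10 below 0 and 0 past the threshold.

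**Figure D2:**
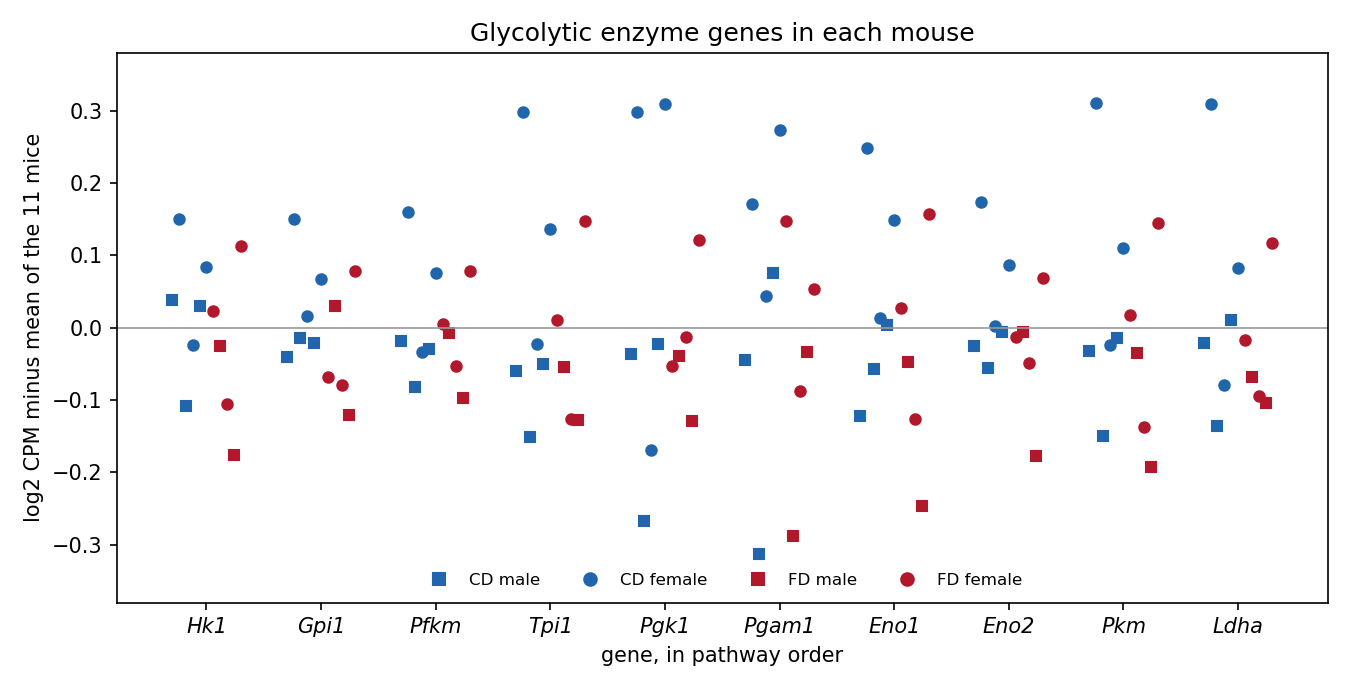
Log2 CPM of each gene in each mouse, as the difference from the gene's mean over the 11 mice, by group (colour) and sex (shape). CD female 1, CD female 3 and FD female 3 lie above 0 for all 10 genes, and CD male 2, FD female 2 and FD male 2 below 0 for all 10.

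The next question was whether the 10 genes move together over the mice. Pearson's r between the log2 CPM of 2 of the genes over the 11 mice was above 0 for all 45 pairs, with a median of 0.872, the lowest of 0.324 (Gpi1 and Pgam1) and the highest of 0.985 (Pfkm and Pkm). The median of Spearman's rho was 0.827. By permutation tests with 100000 resamples each and adjustment over the 45 pairs, 42 pairs passed 0.05 for r and 41 for rho. For Pfkm and Pkm, rho was 0.918, with a permutation p of 1e-05 for r, the smallest that these permutations can give (adjusted 9e-05), and of 0.00019 for rho (adjusted 0.00104). For Gpi1 and Pgam1, rho was 0.373, with a permutation p of 0.333 for r and 0.261 for rho. Pgam1 was the least correlated gene, with a median r of 0.628 in its 9 pairs, against 0.896 in the 36 pairs without it. Pgam1 had the fewest counts of the 10 genes. After the 2 mice farthest from the median of the first gene were left out, the median r was 0.805 and all 45 values stayed above 0. As deviations from the diet means the median r was 0.872, and within the 6 CD mice alone it was 0.904. As deviations from the means of diet and sex it was 0.837, with 44 of 45 above 0. All points share their libraries and the normalization. Over all 49725378 pairs of genes at an average of 10 CPM or more, the median r was 0.028. Of these pairs 1.12% were at or above the median of the 45, and 29.7% at or above the lowest of the 45.

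**Figure D3:**
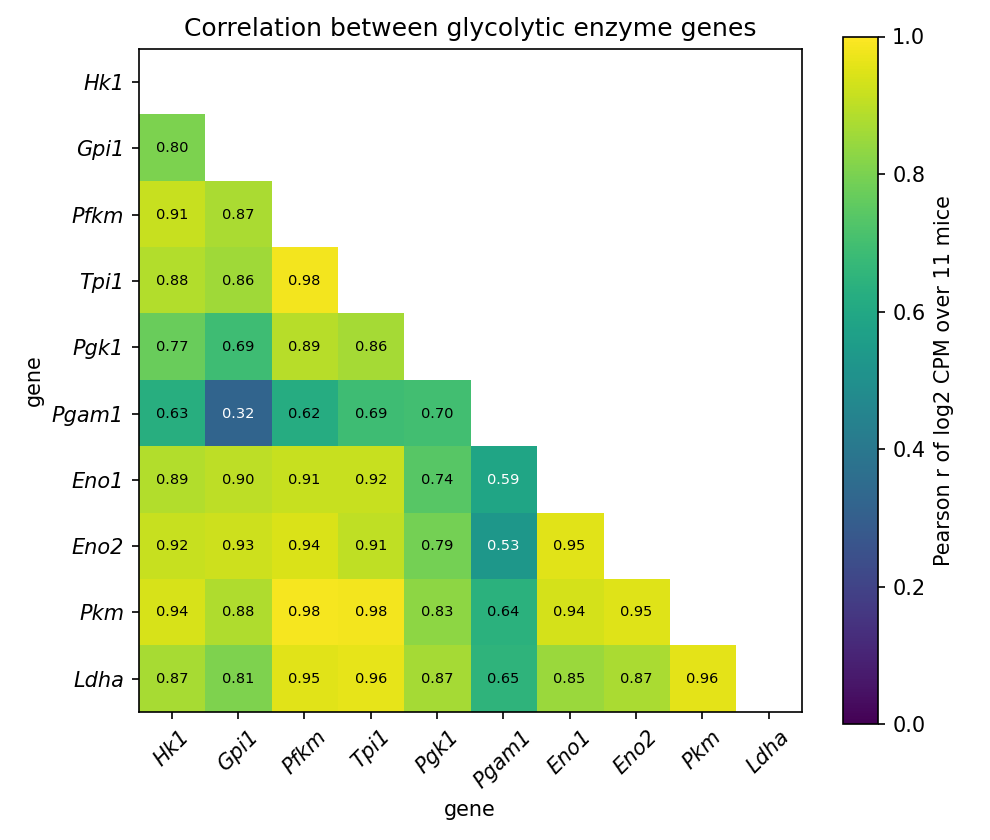
Pearson's r between the log2 CPM of each pair of the 10 genes over the 11 mice (colour scale from 0 to 1). The row and column of Pgam1 hold the lowest values, down to 0.324 with Gpi1, and Pfkm, Tpi1 and Pkm form the most correlated block.

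Many genes outside the lists shared the profile. Of 9865 genes outside the lists that averaged 10 CPM or more, 449 (4.55%) had an r of at least 0.9 with the mean standardized profile of the 10 genes, and 215 (2.18%) had an r of -0.9 or lower. The gene most like the profile was Syp, which encodes the synaptic vesicle protein synaptophysin, with r = 0.992 over the 11 mice. It was followed by Got1 (cytosolic aspartate aminotransferase, r = 0.983), Hddc3 (r = 0.982), Rnf187 (r = 0.980) and Mea1 (r = 0.979). None of these 5 genes passed the threshold between FD and CD mice. Their log2 fold changes lay between -0.08 (Syp) and -0.05 (Hddc3).

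A measure of the libraries moved with the profile. The no-feature share, the percentage of singly aligned reads that fell in no annotated exon, ranged from 8.34% in CD female 1 to 12.9% in CD male 2. Mice with a higher share had lower levels of all 10 genes. Pearson's r with the share ran from -0.912 (Pkm) to -0.648 (Gpi1) with a median of -0.832, and Spearman's rho from -0.891 to -0.527. Adjusted over the 10 genes, all permutation p-values of r were at or below 0.0313, while those of rho for Gpi1 and Pgk1 were both 0.101. Without the 2 mice with the most extreme shares, CD female 1 and CD male 2, r lay between -0.825 and -0.424. Within the 6 females the median r was -0.904, and within the 6 CD mice -0.888. Both of these subsets include CD female 1, the mouse with the lowest share. Correlations within the 5 males or within the 5 FD mice were not computed. Over all 9973 genes at that average, the median r with the share was -0.185, and 20.4% of these genes had an r as low as that of Gpi1 or lower. After the share had been removed from both genes of a pair, the median r between the 10 genes was 0.702, with 39 of 45 above 0. The share did not differ between the diets beyond the spread of the mice, with 11.2% ± 1.30 (SD, n = 5) in FD and 10.8% ± 1.499 (SD, n = 6) in CD mice (two-sided exact permutation test, p = 0.608). The ambiguous share, of singly aligned reads that overlapped more than 1 gene, was highest in CD female 1 (1.78%), CD female 3 (1.77%) and FD female 3 (1.75%). In these mice all 10 genes lay above their means. The share of the aligned total tallied as having several alignments was also highest in them, at 16.0%, 15.6% and 15.1%. What sets any of these shares in a library was not tested.

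**Figure D4:**
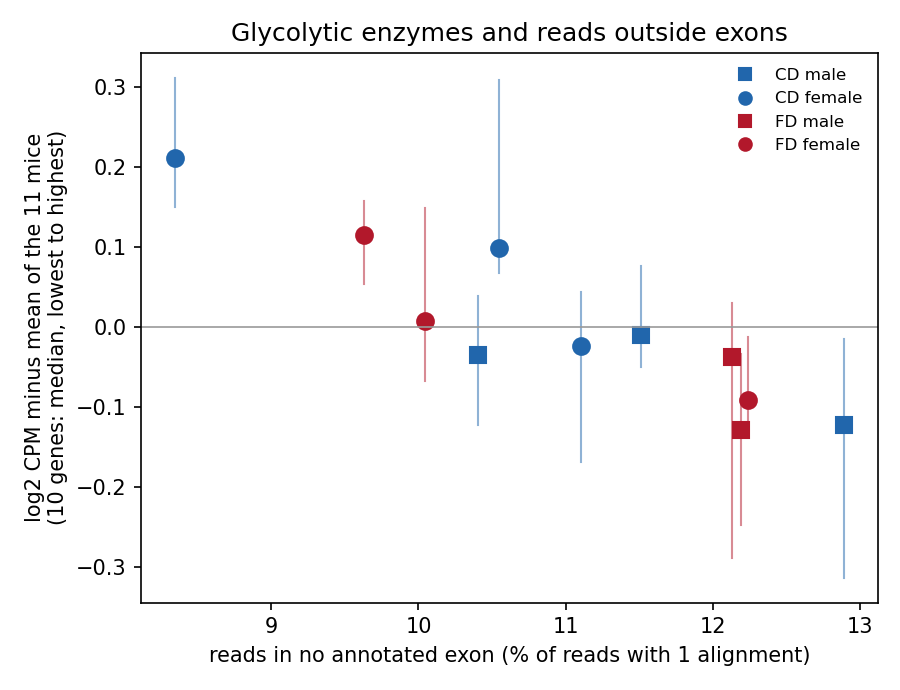
Deviation of the 10 genes from their means over the 11 mice (log2 scale) against the no-feature share of the library (%). Symbols are the median of the 10 genes in a mouse and lines run from the lowest to the highest gene. CD female 1 has the lowest share, 8.34%, and the highest median, and CD male 2 has the highest share, 12.9%.

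Males and females were compared with maternal diet as a covariate. All 10 genes had fitted values below 0 (males minus females), from -0.23 for Pgam1 to -0.07 for Gpi1, with a median of -0.15, a change of -9.89%, beside a median of -0.004 over all genes tested, of which 50.9% were below 0. A single gene, Eno1, passed the threshold, against 6.11% of all genes in either direction and 3.03% lower in males. The lowest, median and highest values of Eno1 were 87.5, 99.8 and 104.1 CPM in the 5 males and 95.2, 110.5 and 123.4 CPM in the 6 females, so that the sexes overlapped. The difference was -0.19 on the log2 scale, with a standard error of 0.06 and an adjusted p of 0.0994 from edgeR. At an unadjusted p under 0.05 there were 7 of the 10 genes, against 20.3% of all genes. DESeq2 called 3 (Tpi1, Eno1 and Pkm), against 16.2% of all genes to which it gave an adjusted p. For all 10 genes the sexes overlapped, while they did not overlap for 1.78% of all genes.

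The call of Eno1 between the sexes did not hold in most fits with a mouse left out. It was lost without any one of CD male 1, CD female 1, CD male 2, CD male 3, CD female 3, FD female 1, FD male 1, FD male 2 and FD female 3, with 0 of the 10 genes called in each case. Without CD female 2 the number called was 6, and without FD female 2 it was 4. With the no-feature share as a covariate, added after seeing the data, 0 of the 10 genes were called, 8 were below 0, and the median log2 fold change was -0.03. The share itself was 11.8% ± 0.933 (SD, n = 5) in males and 10.3% ± 1.33 (SD, n = 6) in females (two-sided exact permutation test, p = 0.0671, and 0.219 after adjustment over 8 such comparisons). The no-feature share overlapped between the sexes, from 10.4% to 12.9% and from 8.34% to 12.2%. The ambiguous share was 1.63% ± 0.0206 (SD, n = 5) in males and 1.72% ± 0.0586 (SD, n = 6) in females. By the same exact permutation test its p was 0.0195, and 0.156 after the adjustment over 8.

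**Figure D5:**
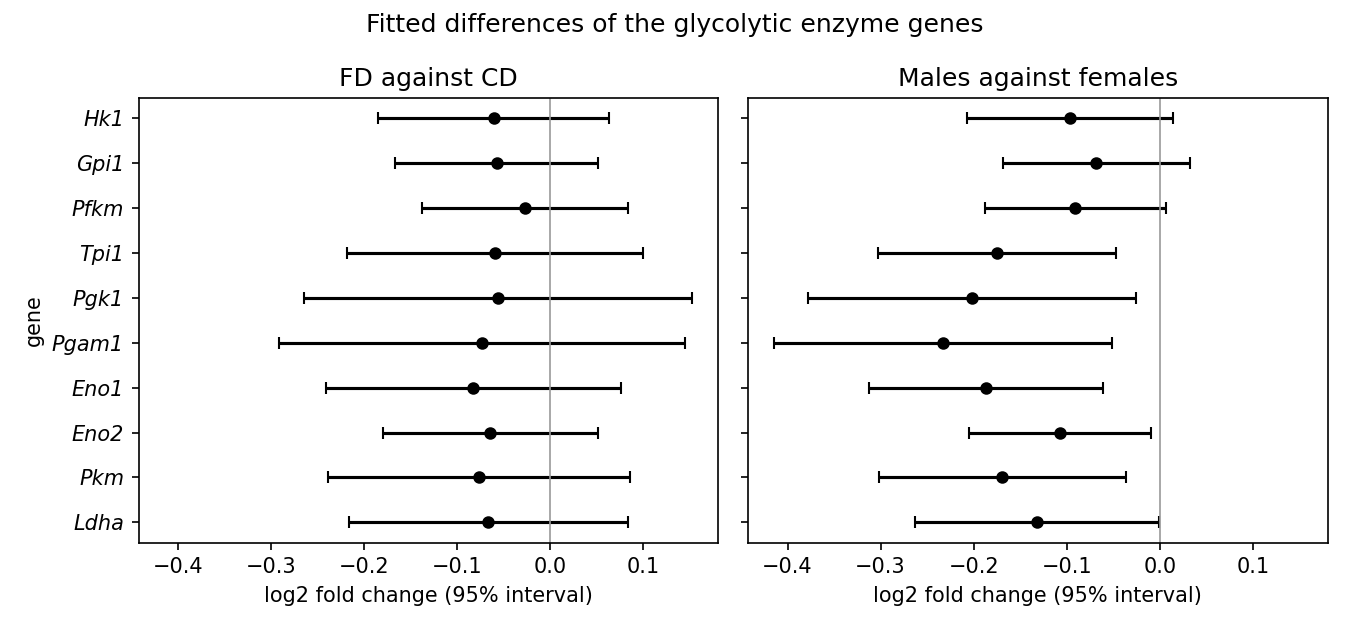
Fitted log2 fold changes with 95% intervals for the 10 genes, FD against CD mice (left) and males against females (right). All points lie below 0. On the left every interval includes 0, and on the right those of Hk1, Gpi1 and Pfkm do.

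The diet difference was not shown to depend on sex. In the interaction of diet and sex, 0 of the 10 genes passed the threshold, and so did 0 of all genes, 0% (edgeR, with DESeq2 also at 0%). At an unadjusted p under 0.05 there were 0 of the 10 genes, against 1.9% of all genes. The interaction terms were above 0 for 9 of the 10 genes, against 44.9% of all genes, with a median of 0.06 and the largest for Pgk1 (0.17, 95% interval -0.19 to 0.54). In fits of each sex alone, the median FD minus CD log2 fold change was -0.12 in females, with all 10 genes below 0, and -0.04 in males, with 9 below 0 and 0 called in either.

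Isozyme ratios within a library do not depend on the scaling between libraries. The level of Eno2 per kb was 7.73 times that of Eno1 in CD mice and 7.85 times in FD mice (geometric means, n = 6 and 5), with 7.32 to 8.33 over all mice. On the log2 scale the difference was 0.02 (two-sided exact permutation test, p = 0.591). The ratio of Ldha to Ldhb was 0.655 and 0.663 in CD and FD mice, a log2 difference of 0.02 (exact permutation test, p = 0.465). For Pfkm over the sum of Pfkl and Pfkp, the liver and platelet type subunits, the ratios were 1.06 and 1.08, a log2 difference of 0.02 (exact permutation test, p = 0.301). Hk1 exceeded Hk2, the hexokinase typical of muscle, 114.9 times in CD and 110.1 times in FD mice, a log2 difference of -0.06 (exact permutation test, p = 0.654). Adjusted over the 4 ratios all p-values were 0.654. Ratios that contain Eno1, Ldha or Ldhb are ratios of countable reads, since part of these genes' reads is missing, so their levels are not molar ratios.

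The other genes of glucose metabolism were compared between the diets in the same fit. Of 77 such genes in 7 lists, 76 were tested. Of these 48 were below 0, against 51.8% of all genes tested and 58.9% of genes that averaged 10 CPM or more. The threshold was passed by 0 of the 76 with edgeR or DESeq2, against 0.068% and 0.0875% of all genes. The median log2 fold change of the 76 was -0.01. Among the other glycolytic isozymes 12 of 16 were below 0. Gapdh, whose coding windows are all copied elsewhere, was the single gene of the 76 with an unadjusted p under 0.05, at 49.9 ± 2.02 CPM (SD, n = 6) in CD and 43.9 ± 2.42 CPM (SD, n = 5) in FD mice and an adjusted p of 0.714 (edgeR). Aldoa and Aldoc had log2 fold changes of -0.12 and -0.04, and Ldhb, Pfkl, Pfkp and Hk2 of -0.08, -0.07, -0.03 and 0.02, all with an adjusted p of 1. The gene with the smallest p in each other list was Pfkfb3 among the regulators (log2 fold change 0.10), Mpc1, a subunit of the mitochondrial pyruvate carrier (-0.23), Pcx, pyruvate carboxylase (-0.09), H6pd in the pentose phosphate pathway (0.12), Gpd1l in the glycogen and glycerol phosphate list (-0.04) and Ddit4 among hypoxia targets (-0.13). Each of these 6 had an adjusted p of 1 (edgeR). Between the sexes, 7 of the 76 were lower and 4 higher in males past the threshold (14.5%, against 6.11% of all genes). The 7 were Aldoa, Pfkl, Pgam2, Bsg, Pcx, Taldo1 and Tkt, and the 4 were Pfkfb2, Pfkfb3, Arnt and Vegfa. They were named after their values had been seen. DESeq2 called 16 of the 76 between the sexes (21.05%), against 16.2% of all genes to which it gave an adjusted p. With edgeR and the no-feature share as covariate, 0 of the 76 were called. The number called was also 0 without CD male 1, CD female 1, CD male 2, CD female 3, FD male 2 or FD female 3. It was 1 without FD female 1, 2 without CD male 3, 6 without FD male 1, 18 without FD female 2 and 20 without CD female 2.

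Marker genes of hippocampal cell types were present, with none of the 7 markers of pyramidal and granule neurons at 0 in any mouse. None of the 54 markers of 9 cell types or neighbouring tissues passed the threshold between the diets. The summed level of the neuronal markers ran from 11510 to 11980 CPM in CD and from 10750 to 12350 CPM in FD mice. Of these 7 markers 6 were below 0 in FD mice (median log2 fold change -0.05). The sum of 7 astrocyte markers ran from 4106 to 4805 CPM in CD and from 4488 to 4877 CPM in FD mice. Here 6 of the 7 were above 0 in FD mice (median 0.04). The 6 oligodendrocyte markers summed to 3885 to 6238 and 3979 to 5160 CPM, with 5 of the 6 below 0. The 6 choroid plexus markers were all below 0 in FD mice, with sums of 35.6 to 89.5 CPM in CD and 30.7 to 43.6 CPM in FD mice. In the other direction, all 6 markers of striatum and thalamus were above 0 (median log2 fold change 0.08), as were all 5 blood markers (0.16) and 4 of 5 endothelial markers (0.09), none of them past the threshold. Between the sexes, the astrocyte sum was 4625 to 4877 CPM in males and 4106 to 4726 CPM in females, with overlapping ranges. The log2 sum of each marker list was also set against the mean standardized profile of the 10 genes over the 11 mice. Its r was 0.69 for pyramidal and granule neurons, 0.71 for inhibitory neurons, 0.53 for oligodendrocytes, 0.50 for microglia and 0.37 for choroid plexus. It was -0.82 for endothelial cells, -0.73 for astrocytes, -0.30 for blood and -0.01 for striatum and thalamus. Whether cell composition has a part in the values of the 10 genes was not tested.

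A search by sequence found 97 annotated copies of 7 of the 10 genes, 35 of them of Ldha and 18 of Eno1, and no copy of Hk1, Pfkm or Eno2. Of these copies 13 had enough counts to be tested, and none passed the threshold between the diets. The log2 fold changes were above 0 for 10 of the 13, with a median of 0.27, while 51.8% of all genes tested were below 0. The copy at that median, Gm16103, had 0 to 4 counts per mouse. An unadjusted p under 0.05 (edgeR) was found for 3 of the 13, against 2.59% of all genes. These were Gm1840 (described below), Gm13809 with 0 to 4 counts per mouse and Gm17138 with 0 to 3. The counts of copies are uncertain in the same way as those of their parents. Only 4 of the 13 had a mean of at least 20 counts per mouse. Gm1840, a copy of Gpi1 (chr8:5639580-5641011, 98.7% identical over 1043 bases), had 496 to 1845 counts. Its values were 46.5 ± 2.57 CPM in FD and 42.6 ± 2.99 CPM in CD mice (SD, n = 5 and 6), a log2 difference of 0.13 with an adjusted p of 1 from edgeR, while the difference of Gpi1 itself was -0.06. Eno1b, an intronless copy of Eno1 annotated as protein-coding, had a log2 fold change of 0.02, Gm11814 (a copy of Ldha) of -0.08 and Pgam1-ps2 of -0.14. Pgk1-rs7, identical to Pgk1 over 1250 bases, had 0 to 4 counts per mouse.

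The promoters of the 10 genes were read for the letters ACGTG. This is a form of the core of the element that hypoxia-inducible factor binds, and it also lies within the E-box CACGTG. The table of RefSeq promoters (GRCm38.p6) holds 18 starts of the 10 genes, and the 250 bases before each start were searched on both strands. ACGTG was found before 6 of the 18 starts (33.3%), against 16.6% of all 32851 promoters of the table. These 6 starts belong to 5 genes, Ldha, Pkm, Pfkm, Pgam1 and Pgk1. Another motif, GGGCGG, the GC box, was found before 7 of the 18 (38.9%), against 32.7% of all. The GC content of the 18 windows ran from 36.4% (Pfkm) to 71.2% (Eno1), against a median of 52.4% over all promoters. It was 67.2% in the Ldha window with ACGTG, 64% for Pgam1 and 62.8% for Pgk1. The shares of motifs were not matched for GC content, and starts of the same gene are not independent. No test was made of them. The windows of Ldha, Pgk1 and Pgam1 are shown with the matches in capitals. They were picked as examples among 4 windows that hold ACGTG and overlap no annotated exon, and the other is a Pfkm window (chr15:98092339-98092588, 2 matches). That of Ldha (5 matches, of which 4 come from 2 copies of the palindrome CACGTG) is chr7:46845554-46845803, plus strand. That of Pgk1 (2 matches) is chrX:106186850-106187099, plus strand, and that of Pgam1 (1 match) is chr19:41911621-41911870, plus strand.
Ldha: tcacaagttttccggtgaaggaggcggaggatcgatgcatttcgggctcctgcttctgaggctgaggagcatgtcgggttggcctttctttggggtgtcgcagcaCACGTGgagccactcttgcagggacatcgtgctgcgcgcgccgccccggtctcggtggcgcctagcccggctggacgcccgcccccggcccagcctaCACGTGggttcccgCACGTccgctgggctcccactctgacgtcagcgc
Pgk1: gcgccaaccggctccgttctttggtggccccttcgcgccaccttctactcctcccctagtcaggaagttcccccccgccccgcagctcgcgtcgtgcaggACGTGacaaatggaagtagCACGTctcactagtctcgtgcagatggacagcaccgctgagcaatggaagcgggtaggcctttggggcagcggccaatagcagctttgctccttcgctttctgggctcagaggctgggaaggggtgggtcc
Pgam1: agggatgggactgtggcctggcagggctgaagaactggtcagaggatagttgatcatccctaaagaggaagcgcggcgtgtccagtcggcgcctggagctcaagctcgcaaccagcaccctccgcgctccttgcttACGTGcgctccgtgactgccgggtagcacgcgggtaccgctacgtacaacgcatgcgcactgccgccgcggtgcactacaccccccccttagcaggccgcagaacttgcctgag
A match of letters is a description and not a bound site.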

How the data were processed

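Hippocampal RNA of 11 mice was sequenced in 50-base single-end reads. Per the labels and the paper's methods, the authors aligned the reads with STAR to GRCm38 (mm10), counted reads per gene with featureCounts, and deposited raw counts per gene for each mouse, without normalization. Reads with several alignments are not in the counts. The summary line for them made up 13.7% to 16.0% of the aligned total. Whether that line counts reads or alignments is not given in the sources used here. The annotation release and strand setting are not given either. Summary lines for unassigned reads were kept out of library sizes and tests. They made the no-feature share, 8.34% to 12.9% of singly aligned reads. Total counts on genes ranged from 11737554 to 44447006, and 3 counts were worth 0.0675 to 0.256 CPM. Mice of the same group and sex differed beyond sampling noise (chi-square per degree of freedom from 4.67 to 13.9).

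Groups, sexes and replicate numbers came from the sample labels. Of the gene identifiers, 94.9% matched GENCODE M21. Counts of genes with a total of at least 10 were analysed with edgeR 4.0.16 in R 4.3.3 (TMM factors 0.981 to 1.02, quasi-likelihood test, Benjamini-Hochberg adjustment, the study's threshold of 0.1), and with DESeq2 1.42.0 as an alternative. Log2 CPM used a prior count of 2. The scripts were tested on simulated counts. Standard errors and 95% intervals of fold changes were derived from edgeR's F statistic and its degrees of freedom. Coding sequences came from the GENCODE transcripts, 1 transcript per gene, and copies were found with blastn 2.17.0 over at least 100 bases. Correlations were tested by 100000 permutations, ratios by all 462 splits into 6 and 5 mice (smallest possible p 0.00217). Other steps used Python 3.11.15, pandas 2.3.3, scipy 1.17.1 and matplotlib 3.10.9.

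The 10 genes and all lists were chosen with earlier results of these data known. Genes named in the text were the 10 genes, Aldoa, Aldoc, Gapdh, the paralogues of the ratios, each pathway list's genes with an unadjusted p under 0.05 between the diets (otherwise the smallest p), the 5 genes most like the mean profile, and copies. Mice of the same sex and number in the labels were paired as a check. Their deviations from the group means had r from 0.468 to 0.721 in the 5 pairs, all over 0.1. Mice of the same sex with other numbers reached 0.769. With sex removed, 2 of 5 pairs were over 0.1 (mean r 0.165). Of pairs of the same sex with other numbers, 3 of 10 were (mean r -0.083). With sex removed, the 2 FD males deviate by equal and opposite amounts, so the male pairs cannot inform these counts. Whether the pairing rests on sex was not tested. Alternatives covered the tool, the size factors, the filters, sex, the no-feature share, the block, fits within either sex, and leaving out single mice. Fits of the sexes without single mice, and with the no-feature share, were added after seeing the data.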

Additional observations from a re-analysis of the deposited data

Results flagged for a closer look

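A single value stood apart from its group. The log2 ratio of Ldha to Ldhb was -0.656 in FD female 1, below the other 4 FD mice, which lay between -0.587 and -0.561, and its gap to the nearest of them was 0.729 of the whole range in FD mice. The CD mice ranged from -0.669 to -0.572, so the value lay inside the range of the other group. Dixon's criterion was applied to 30 sets of values, and chance alone flags about 1 in 20.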

How the results depend on the processing

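No alternative put any of the 10 genes past the threshold between the diets, the replicate block included, and of the 210 single-gene values under the alternatives 5 changed direction. Pgk1 was 0.0186 in males only, and with single mice left out the values ran from -0.0513 to 0.00381 for Pfkm, from -0.106 to 0.000495 for Tpi1 and from -0.109 to 0.00686 for Pgk1 (above 0 without CD female 1, and for Pfkm also without FD male 2). The median log2 fold change of the 10 genes lay between -0.0977 and -0.0236 with single mice left out, at -0.06 with DESeq2 and with RLE size factors and at -0.07 with the replicate block. The number of all genes called was 14 in the fit as reported, 1 with at least 10 counts in every mouse, 8 with filterByExpr, 22 with the no-feature share as covariate, 25 with the replicate block, 1 in females only and 2 in males only. With single mice left out it ran from 3 to 12, at 3 without FD female 1 or 3, 4 without CD male 3 or FD female 2, 5 without CD male 1, CD male 2 or FD male 1, 8 without CD female 3 and 9 without CD female 1 or 2. Between the sexes, 3 of the 10 genes were called with DESeq2, 2 with at least 10 counts in every mouse, 0 with the no-feature share as covariate and 0 to 6 with single mice left out. No isozyme ratio passed 0.05 under any alternative, but females alone and the 5 pairs of the block could not reach it, with smallest exact p-values of 0.1 and 0.0625. Paired by the block, the differences were 0.0214 (Eno2 to Eno1), 0.0234 (Ldha to Ldhb), 0.0179 (Pfkm) and -0.0491 (Hk1 to Hk2). With single mice left out, the difference for Hk1 to Hk2 lay between -0.144 and 0.01004, above 0 without FD male 1. The cause of these changes was not tested. Pgk1 and Pgam1 have the lowest counts, down to 212 and 133. The spread between mice also limits the abundant genes, and the 95% intervals of the diet difference over the 10 genes reach at most 0.29 below 0 and 0.15 above 0 on the log2 scale.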
